A study of Rattus norvegicus with 4 samples.

Results

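Liver RNA from rats that carried a connexin transgene and ate luteolin was compared with liver RNA from wild-type rats that received no luteolin. The comparison rests on 2 of the 4 arrays of the series, 1 array a side, chosen by their titles (Tg + luteolin and Wt). Of 20174 probes, 14404 had a background-subtracted value on both arrays, and these gave 14309 genes of the 20024 on the array.

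All 4 groups were Sprague-Dawley rats that received the liver carcinogen diethylnitrosamine by injection into the abdominal cavity, when 10 weeks old. All were then kept for 12 weeks on a diet lacking methionine and choline. The Tg + luteolin group carried a dominant negative form of Cx32 (connexin 32) and had luteolin, a plant flavone, in that diet. The Wt group had the same injection and diet, with neither the transgene nor luteolin. The remaining arrays were transgenic without luteolin (Tg) and wild type with luteolin (Wt + luteolin), and they are used here to place the values. The sources used here do not give the sex, the luteolin dose, the promoter of the transgene, the number of animals or whether animals were pooled. The compared groups differ in genotype and in luteolin at once, so the effects of the 2 cannot be told apart within this comparison. With 1 array per group there is no replicate check on any difference below, and precision is limited by the number of arrays.

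Cx32, encoded by Gjb1, is the main gap junction protein of hepatocytes. It forms channels that let small molecules pass between neighbouring cells, and a dominant negative form joins the normal subunits and impairs the channels. A methionine and choline deficient diet impairs the export of fat from hepatocytes and causes fat storage, inflammation and scarring. Diethylnitrosamine is turned into a DNA-damaging agent by liver P450 enzymes and gives rise to preneoplastic foci. In rats such foci are classically marked by the placental form of glutathione S-transferase, Gstp1, which normal hepatocytes make at very low levels. The design asks whether a transgenic liver under luteolin comes to the level of the untreated wild type.

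Among the largest negative differences were those of Gstp1, Akr1b8 and Gsta5, which encode detoxifying enzymes. Among the largest positive ones were the male urinary protein genes Mup5 and Mup4l1. Their upstream sequences are shown because the members of each group differed in the same direction. Each run is the 250 bases before the annotated start in RefSeq (GRCr8), written in the direction of the gene. They lie at chr1:210769706-210769955 (minus strand) for Gstp1, chr4:63964171-63964420 (plus strand) for Akr1b8, chr8:87988104-87988353 (plus strand) for Gsta5, chr5:79999696-79999945 (minus strand) for Mup5 and chr5:80226535-80226784 (minus strand) for Mup4l1. Capitals mark matches, on either strand, to the antioxidant response element core TGACNNNGC, the AP-1 element TGANTCA, the STAT5 element TTCNNNGAA or the TATA box TATAAA.
Gstp1: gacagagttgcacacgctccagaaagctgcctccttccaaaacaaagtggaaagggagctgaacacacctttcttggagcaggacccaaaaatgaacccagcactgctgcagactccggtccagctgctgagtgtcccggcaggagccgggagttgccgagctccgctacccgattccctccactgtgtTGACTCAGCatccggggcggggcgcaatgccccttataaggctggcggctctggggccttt
Akr1b8: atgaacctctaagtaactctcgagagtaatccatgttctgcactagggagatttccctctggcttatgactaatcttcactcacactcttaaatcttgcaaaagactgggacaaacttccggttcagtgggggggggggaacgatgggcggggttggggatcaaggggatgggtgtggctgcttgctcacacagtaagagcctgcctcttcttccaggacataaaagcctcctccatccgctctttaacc
Gsta5: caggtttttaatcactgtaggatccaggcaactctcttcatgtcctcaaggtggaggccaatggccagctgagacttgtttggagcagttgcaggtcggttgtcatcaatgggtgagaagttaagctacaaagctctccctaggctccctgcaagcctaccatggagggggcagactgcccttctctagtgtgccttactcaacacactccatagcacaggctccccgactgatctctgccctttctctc
Mup5: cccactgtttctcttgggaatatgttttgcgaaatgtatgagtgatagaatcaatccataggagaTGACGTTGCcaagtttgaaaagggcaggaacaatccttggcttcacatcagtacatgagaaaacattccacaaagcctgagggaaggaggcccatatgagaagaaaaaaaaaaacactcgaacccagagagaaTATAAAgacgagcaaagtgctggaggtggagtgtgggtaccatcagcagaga
Mup4l1: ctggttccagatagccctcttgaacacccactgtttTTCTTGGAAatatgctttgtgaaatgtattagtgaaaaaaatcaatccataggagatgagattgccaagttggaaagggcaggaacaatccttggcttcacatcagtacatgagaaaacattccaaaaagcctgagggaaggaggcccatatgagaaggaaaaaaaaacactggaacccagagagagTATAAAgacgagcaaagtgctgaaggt
In Gstp1 the capitals, TGACTCAGC, are a match to the antioxidant response element core that overlaps an AP-1 match, and they begin 61 bases before the start. No motif searched was found in these windows of Akr1b8 and Gsta5. The Mup5 window held an antioxidant response element core and a TATA box, and that of Mup4l1 a TATA box and a STAT5 element. The Mup5 and Mup4l1 windows shared an unbroken run of 52 bases. Of 33469 rat promoter windows of this length, 10.1% held the antioxidant response element core, 6.34% the AP-1 element, 7.67% the STAT5 element and 12.9% the TATA box. A match describes the letters and does not show that a factor binds there.

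The arrays were read on 1 scale, the log2 of the background-corrected intensity after quantile normalization, called the level below. A difference is the level on the Tg + luteolin array minus that on the Wt array, unless another pair is named. Of each array's probes, 72.5% to 78.7% had a background-subtracted value, and 55.4% to 59.4% of those lay under 50 intensity units, so that most genes were dim. Their differences are shrunk toward 0 by the background correction. Among the genes above background on both compared arrays, some stood apart on a single array. They lay 0.7 or more from the median of the other 3 arrays, which themselves spanned no more than 0.4. By that count the Tg array held 45 high and 11 low genes and the Wt + luteolin array 6 and 17, against 3 and 3 on Tg + luteolin and 1 and 5 on Wt. A gene that fell to background on Tg + luteolin or Wt was left out, while one that did so on Tg or Wt + luteolin was kept. The counts of low genes are therefore not on equal terms between the arrays.

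The liver label was checked against hepatocyte markers. Of the 14 genes listed, 12 were on the array and all 12 were above background on both arrays. Albumin (Alb) stood at 15.49 on the Tg array, 15.62 on Tg + luteolin, 15.49 on Wt and 15.49 on Wt + luteolin. Its raw intensities were 52392, 43490, 39327 and 51608 in the same order. Quantile normalization sets a level by the rank on its array, so these equal levels do not measure equal albumin RNA. The median difference of the markers was 0.02. It was below 0 under 3 of 9 alternative settings, and was -0.23 on the authors' scaling, where the median of all genes was -0.24. On the authors' and the series table's scalings every list is read against that shift, so a median that turns or stays below 0 there says nothing about the list itself. Single markers differed by -0.36 to 0.19.

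Gjb1 showed almost the same level on the compared arrays. It read 10.07 on Tg, 10.43 on Tg + luteolin, 10.40 on Wt and 10.40 on Wt + luteolin, a difference of 0.02. The Tg array was the lowest of the 4, at -0.34 from Wt. Nothing in the sources used here says whether this probe also detects RNA of the transgene. Gjb2, which encodes connexin 26, the partner of Cx32 in hepatocyte channels, had levels of 9.39, 9.47, 9.77 and 9.88 on Tg, Tg + luteolin, Wt and Wt + luteolin. Both transgenic arrays lay below both wild-type arrays for this gene, and the difference was -0.30. Gja1, which encodes connexin 43 of non-parenchymal cells, was higher on the Tg array (8.34) than on Tg + luteolin (7.84) and Wt (7.80), which differed by 0.04. Of 11 connexin genes on the array, 9 were above background on both arrays, and none differed by 1.5-fold.

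On the scale used here most genes read alike on the compared arrays. The standard deviation of the 14309 log2 differences was 0.133 and their median 0.00. Of these genes, 99.6% lay within 1.5-fold, 51.3% were higher on Tg + luteolin and 48.6% lower. At 2-fold or more, 7 genes were higher (0.0489%) and 3 lower (0.021%). On the authors' globally normalized intensities, which do not shrink dim genes and which shift the median of all genes to -0.24, these counts were 45 and 259. On that scale 87.6% of the genes lay within 1.5-fold, 19.1% were higher and 80.9% lower. After centring on array medians 44.8% were higher and 55.2% lower. On the scale used here, 40 genes were higher (0.28%) and 19 lower (0.133%) at 1.5-fold or more, which is 0.412% in either direction. Counts of higher and lower genes in the lists below are read beside the 51.3% and 48.6% over all genes. For Tg against Wt these shares were 47.1% and 52.7%. Counts past 1.5-fold on Tg + luteolin are read beside the 0.412%. A list in which no gene reached 1.5-fold is near that share.

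**Figure D1:**
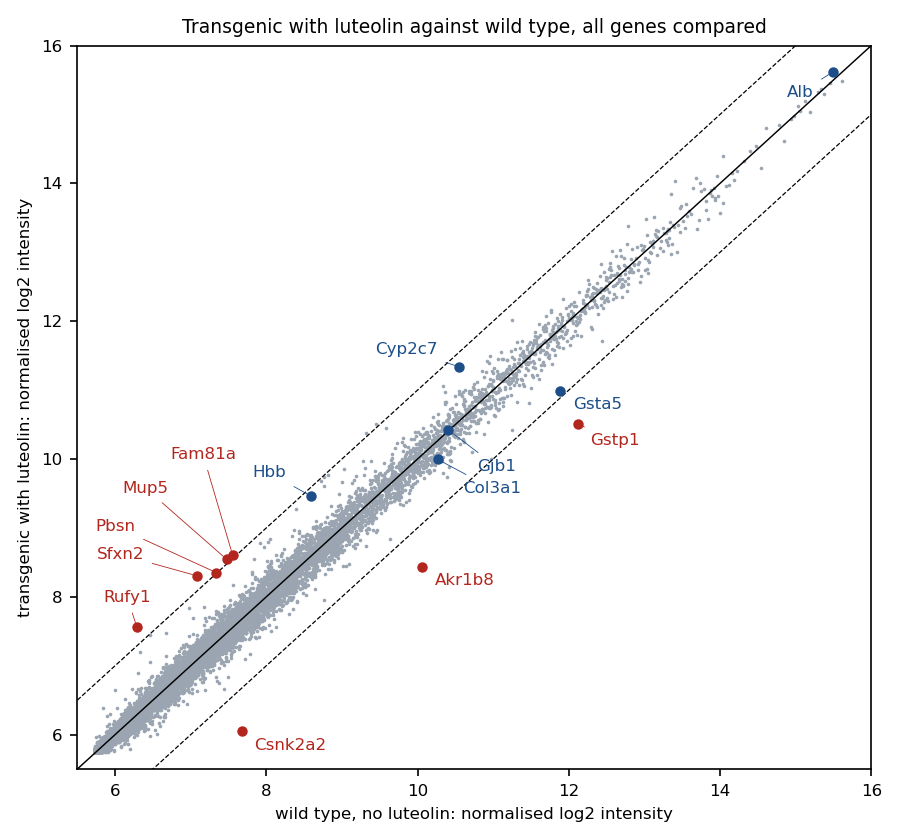
Normalised log2 intensity on the Tg + luteolin array (vertical) against the Wt array (horizontal) for each of the 14309 genes compared, 1 array per group; the solid line marks equal levels, the dashed lines 2-fold, red points named genes past 2-fold and blue points other genes described in the text. Most points lie along the line, with Gstp1, Akr1b8 and Csnk2a2 below the lower dashed line.

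The spread was wider among brighter genes, whose differences are shrunk less. In 4 equal groups of genes from the dimmest to the brightest, the standard deviation was 0.0354, 0.0841, 0.150 and 0.200. All of the 10 genes past 2-fold (0.0699%) lay in the brighter 2 groups, which also held all but 1 of the genes past 1.5-fold.

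Of the 6 ways to pair the 4 arrays, Tg + luteolin against Wt had the smallest standard deviation. The Tg array against Wt gave 0.160, with 19 genes higher (0.129%) and 7 lower (0.0475%) at 2-fold. Tg + luteolin against Tg gave 0.186, with 13 higher (0.0907%) and 24 lower (0.167%). Wt + luteolin against Wt gave 0.156 and Tg + luteolin against Wt + luteolin 0.165. The widest pair was Tg against Wt + luteolin, at 0.216. The pairs share arrays and are not independent. The compared pair remained the one with the smallest value under each alternative computed for all 6 pairs, with 0.131 after centring on array medians and 0.334 on the authors' values. This measure was added after the data were seen, and it leaves out a shift of all genes. On the authors' values, which carry such a shift, the median absolute log2 ratio was 0.269 for the compared pair, 0.197 for Tg against Wt and 0.249 for Wt + luteolin against Wt. There 87.6% of genes lay within 1.5-fold for the compared pair and 87.7% for Tg against Wt. How far 2 arrays of the same group would differ is not measured here.

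**Figure D2:**
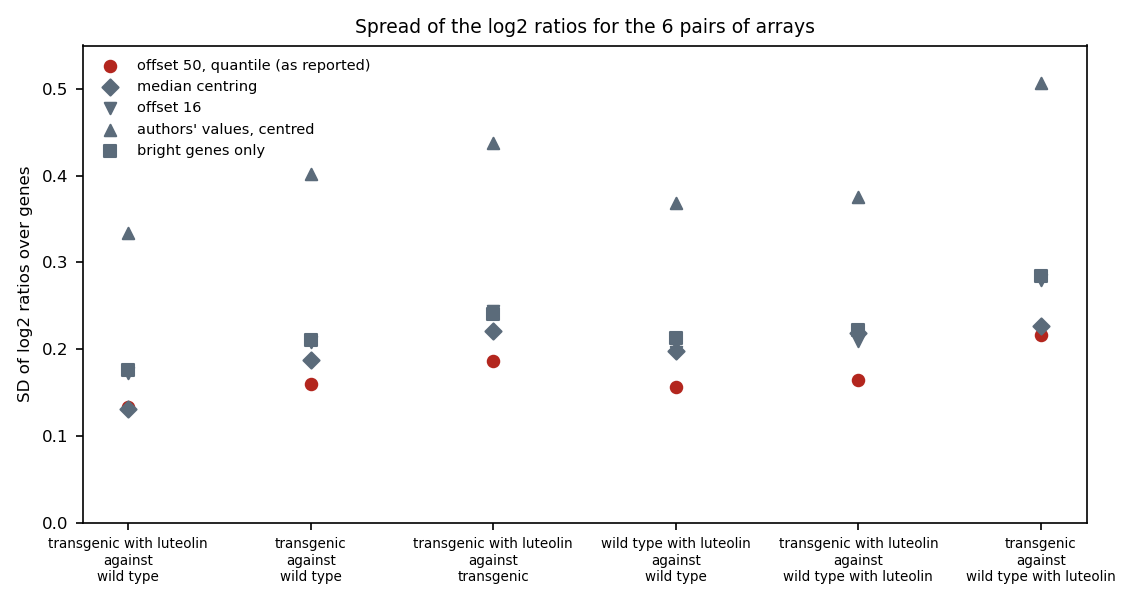
Standard deviation of the log2 ratios over genes (vertical) for each of the 6 pairs of arrays (horizontal), by processing setting; each pair holds 2 single arrays. The pair Tg + luteolin and Wt has the lowest value in every setting shown, 0.133 in the setting used in the text.

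Gstp1, Akr1b8 and Gsta5, which encode detoxifying enzymes, were among the 4 largest negative differences. Gstp1 read 12.32 on Tg, 10.51 on Tg + luteolin, 12.12 on Wt and 10.32 on Wt + luteolin. Both arrays with luteolin were low and both without were high, and Wt was 3.05-fold above Tg + luteolin, a difference of -1.61. Akr1b8, an aldo-keto reductase that reduces reactive aldehydes, followed the same order of treatment. It read 9.70 on Tg, 8.44 on Tg + luteolin, 10.06 on Wt and 8.16 on Wt + luteolin, a difference of -1.62, or 3.08-fold. Gsta5, an alpha class glutathione S-transferase, read 11.49, 10.99, 11.89 and 10.77 in the same order of arrays. Its difference was -0.89, or 1.86-fold, and again the arrays with luteolin were the lower ones. For these 3 genes the Tg + luteolin array lay nearer to Wt + luteolin than to Wt. Probes of the glutathione S-transferase family may share sequence with related genes, so the values of single members are uncertain.

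Other genes of those pathways did not move as one. Of 30 genes in the list of Nrf2 targets and glutathione genes, 14 were higher and 16 lower, with a median of -0.03 that was above 0 under 1 of 9 alternative settings. Gstp3, another pi class member, was higher on Tg + luteolin (8.79) than on Wt (8.02), a difference of 0.77. Gstm2 and Gstm3, of the mu class, differed by 0.53 and 0.52, while Gstm1 differed by -0.37. Nqo1, a quinone reductase and standard Nrf2 target, differed by -0.15, Hmox1 by 0.06 and Gclc by 0.12. In the list of preneoplasia, tumour and progenitor genes 17 of 22 were lower and 5 higher, with a median of -0.04, and Gstp1 and Akr1b8 were the ones past 1.5-fold. Afp, the fetal serum protein made by liver tumours, differed by -0.06, Gpc3, a cell surface proteoglycan of such tumours, by 0.07 and Bex1 by -0.35. Epcam and Krt19, which mark progenitor and bile duct cells, differed by -0.38 and -0.23.

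Csnk2a2, a catalytic subunit of casein kinase 2, had the largest negative difference, at -1.63. It read 7.65 on Tg, 6.05 on Tg + luteolin, 7.68 on Wt and 7.81 on Wt + luteolin. Its raw intensity on Tg + luteolin was 50.4, where the background constant was 38.1. The low value was on the Tg + luteolin array alone, so that neither genotype nor luteolin separates the 4 levels, and under the alternatives the difference ran from -3.68 to -1.53. Arpc2, a subunit of the actin-branching Arp2/3 complex, and Ndufaf5, an assembly factor of respiratory complex I, were also low on that array alone, at -0.66 and -0.65.

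Among the positive differences, Rufy1, an endosomal protein, was the largest at 1.28. It read 7.35 on Tg, 7.56 on Tg + luteolin, 6.29 on Wt and 7.59 on Wt + luteolin. Its raw intensity on Wt was 60.3, where the background constant was 37.5. Sfxn2, a mitochondrial carrier, read 8.46, 8.31, 7.08 and 8.08, a difference of 1.23. For both genes the Wt array alone stood low and the other 3 arrays lay close together. A reading that is low on the Wt array alone enters the comparison with Tg as well, where Sfxn2 differed by 1.38. Of the 10 genes past 2-fold, 3 were low on the Wt array alone and 1, Csnk2a2, was low on Tg + luteolin alone.

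Urinary protein genes stood high among the positive differences. Mup5 encodes a major urinary protein, a pheromone carrier made by the male rat liver. It read 8.95 on Tg, 8.54 on Tg + luteolin, 7.48 on Wt and 9.56 on Wt + luteolin, a difference of 1.07, or 2.09-fold. Mup4l1, of the same family, read 10.90, 9.74, 8.76 and 11.51, a difference of 0.98. Wt was the lowest of the 4 arrays for both, Tg + luteolin the second lowest, and Wt + luteolin the highest. Pbsn, the androgen-dependent prostate protein probasin, which is related to them, read 8.03, 8.35, 7.34 and 8.44, a difference of 1.01. Rup2, a rat urinary protein gene, differed by 0.96, from 8.72 on Wt to 9.68 on Tg + luteolin. Members of the Mup family are near-identical, and their probes may read each other's transcripts.

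Some genes named by size had no role shared with these. Dusp1, a phosphatase that switches off MAP kinases, read 9.68 on Tg, 9.77 on Tg + luteolin, 8.81 on Wt and 9.16 on Wt + luteolin, a difference of 0.96. Hspb1, a small heat shock protein, read 8.99, 9.28, 8.39 and 9.01, a difference of 0.88. For both genes Wt was the lowest of the 4 arrays. Fam81a and Mlc1 differed by 1.05 and 0.99. On the negative side, Fabp7, a fatty acid-binding protein, was high on Wt alone, at 11.25 against 10.38 to 10.57 on the other 3 arrays. A2m, an acute phase protease inhibitor of the rat, differed by -0.81, from 8.76 on Wt to 7.95 on Tg + luteolin. Amdhd1, an enzyme of histidine breakdown, Slc38a2, an amino acid transporter, Tor3a and the nuclear import factor Kpna2 differed by -0.63, -0.62, -0.62 and -0.62.

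**Figure D3:**
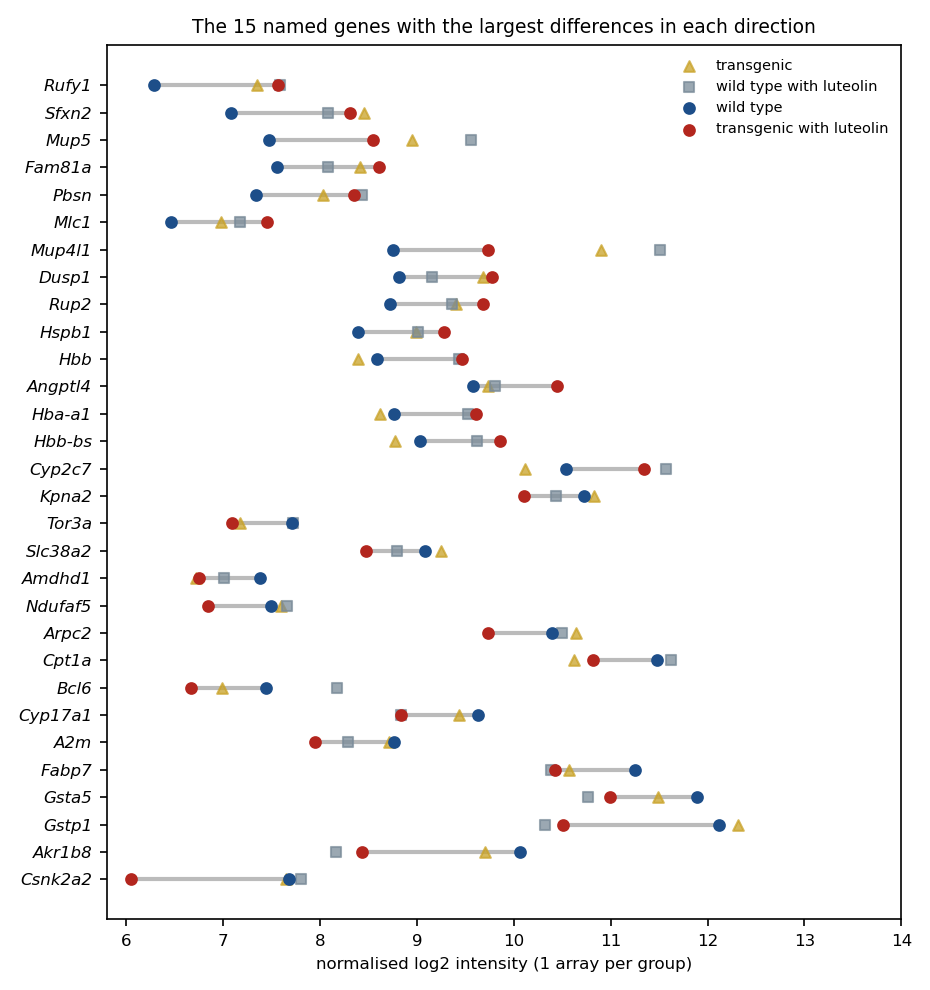
Normalised log2 intensity (horizontal) on each of the 4 arrays for the 15 named genes with the largest differences in each direction (vertical), each point 1 array and each grey bar joining Tg + luteolin and Wt. Csnk2a2 stands apart on the Tg + luteolin array, Rufy1 and Sfxn2 on the Wt array, and Gstp1 and Akr1b8 are low on both luteolin arrays.

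Collagen and matrix genes, which were high on the Tg array, stood on Tg + luteolin at or a little under their Wt level. Fibrillar collagens form the scar of a damaged liver and are made mostly by activated stellate cells. Col3a1 read 11.56 on Tg, 9.99 on Tg + luteolin, 10.27 on Wt and 10.32 on Wt + luteolin. Col1a2 read 9.30, 7.92, 8.17 and 7.82, and Col1a1 7.78, 6.44, 6.78 and 6.54. For each of these 3 the Tg array stood alone and the remaining arrays lay within 0.4 of each other. Their differences from Wt were -0.27, -0.25 and -0.34 on Tg + luteolin and 1.29, 1.14 and 0.99 on Tg.

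Over the collagen list, 10 of 15 members compared were lower on Tg + luteolin than on Wt and 5 higher, with a median of -0.08, beside 0.00 over all genes. The same 15 had a median of 0.44 on the Tg array, where 14 were higher than on Wt (47.1% of all genes) and 6 of them by 1.5-fold or more (0.693% of all genes). On Tg + luteolin no collagen reached 1.5-fold in either direction, which 0.412% of all genes did. Of 30 genes of matrix assembly and remodelling, 21 were lower and 9 higher on Tg + luteolin, with a median of -0.05, and none reached 1.5-fold. On Tg 28 of the 30 were higher, 8 by 1.5-fold or more, with a median of 0.46. The signs of both Tg + luteolin medians held under all 9 alternative settings, whose values ran from -0.52 to -0.05 for the collagens and from -0.43 to -0.05 for the matrix genes. On the authors' scaling the 2 medians were -0.51 and -0.43, where that of all genes was -0.24. Both comparisons use the same Wt array.

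Single members varied around these medians. Mgp, a calcification inhibitor of the matrix, read 10.84 on Tg, 9.35 on Tg + luteolin, 9.54 on Wt and 8.52 on Wt + luteolin. Ccn2, a growth factor that promotes scarring, read 8.26, 6.91, 7.08 and 6.70, and Serpine2, a protease inhibitor, 8.99, 7.82, 7.87 and 7.83. On Tg these 3, picked for their Tg values, differed from Wt by 1.30, 1.18 and 1.12, and on Tg + luteolin by -0.20, -0.17 and -0.05. Fbn1 (fibrillin 1), Vim (vimentin) and Timp1, an inhibitor of matrix proteases, lay further below Wt, at -0.39, -0.34 and -0.33. Mmp27, a matrix protease, had the largest difference of the list, -0.46. Bgn, the proteoglycan biglycan, was the exception among members of that size, at 0.30 above Wt.

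**Figure D4:**
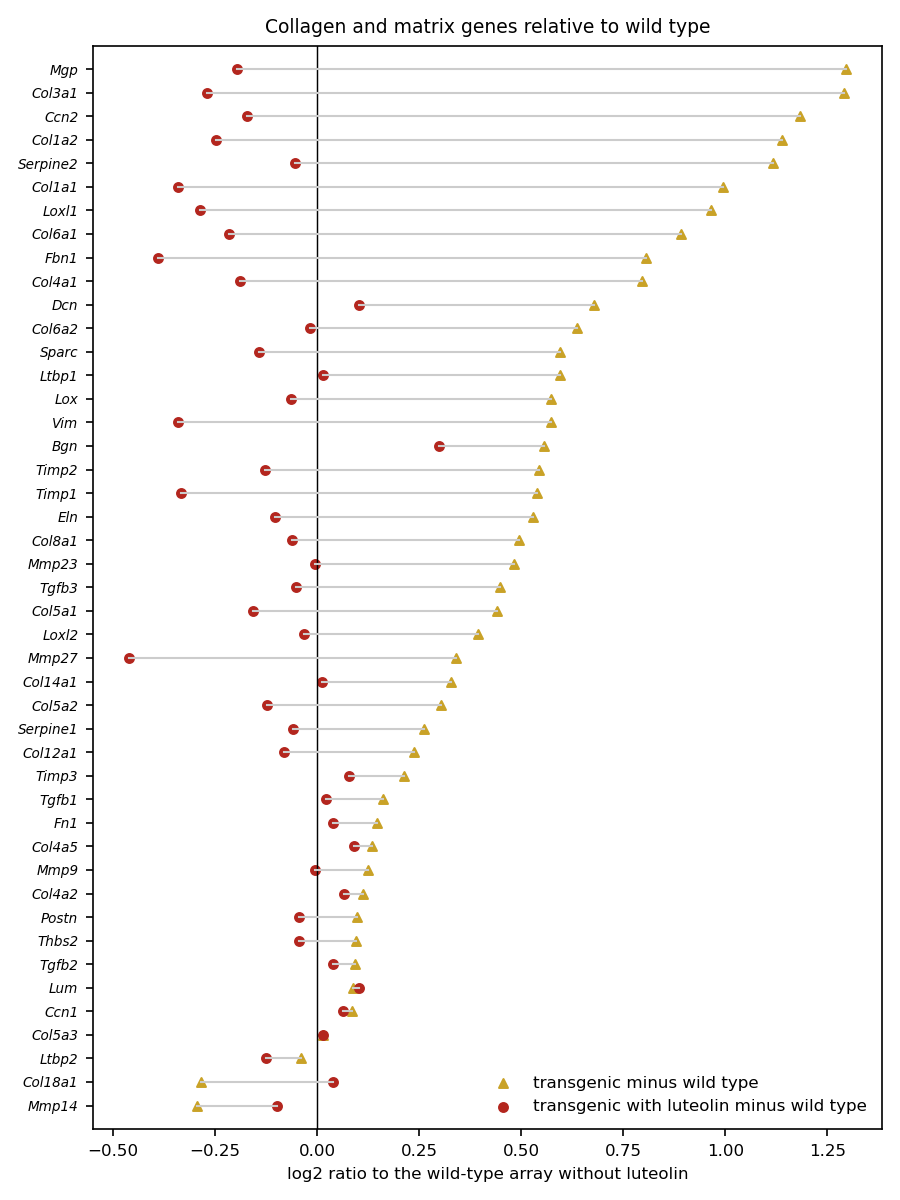
Log2 ratio to the Wt array (horizontal) for collagen and matrix genes (vertical), with 1 point for the Tg array and 1 for the Tg + luteolin array. Most Tg points lie right of 0 (14 of 15 collagens, 28 of 30 matrix genes, beside 47.1% of all genes). All Tg + luteolin points lie within 1.5-fold of Wt, as do 99.6% of all genes.

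Markers of the cell types that produce or surround scar were read beside these genes. In bulk tissue, fewer cells of a type and less RNA per cell cannot be told apart. For stellate cells and myofibroblasts 6 of 12 markers compared were higher and 6 lower, and their summed background-subtracted intensity was 1839 on Tg, 948 on Tg + luteolin, 1087 on Wt and 1263 on Wt + luteolin. Acta2, which defines myofibroblasts, was not above background on both compared arrays. For bile duct cells 6 of 12 markers were higher and 6 lower, with a sum of 2304, 1167, 1234 and 1170 in the same order of arrays. All 12 of these bile duct markers were higher on Tg than on Wt (47.1% of all genes), by a median of 0.33, against -0.01 on Tg + luteolin. For macrophages 9 of 15 markers were higher and 5 lower, with a sum of 15659, 8437, 8620 and 9981. Their median difference was 0.01 on Tg + luteolin, negative under 3 of 9 alternative settings, against 0.33 on Tg. For all 3 cell types the sum was highest on the Tg array and lowest on Tg + luteolin. These sums are not normalized between arrays, and that of the hepatocyte markers was 158010, 129010, 128950 and 168570. The part of these cell types in the matrix values was not tested.

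Individual markers gave the same picture with exceptions. Gpnmb, a membrane protein of lipid-laden macrophages, read 11.71 on Tg, 10.54 on Tg + luteolin, 10.73 on Wt and 10.36 on Wt + luteolin. Lgals3 (galectin 3) read 11.72, 10.69, 10.69 and 10.41, a difference of 0.00. Both were high on the Tg array alone. Trem2 and Mmp12, also of scar-associated macrophages, lay below Wt by -0.25 and -0.34. Other macrophage markers lay above Wt, among them C1qb by 0.28, Vsig4 by 0.20 and Cd9 by 0.17. Among bile duct markers Tspan8 read 8.16, 7.30, 7.39 and 7.06. Cldn7, a tight junction protein, was the one bile duct marker past 1.5-fold, at 0.59 above Wt.

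Genes of the cell cycle were mostly lower on Tg + luteolin than on Wt, by small amounts. Of 36 compared, 29 were lower and 7 higher, beside 48.6% and 51.3% of all genes, and none reached 1.5-fold. Their median was -0.10, with values from -0.64 to -0.08 under the 9 alternatives. On the authors' scaling it was -0.63, where that of all genes was -0.24. On the Tg array 33 of the 36 were higher than on Wt (47.1% of all genes), with a median of 0.15, which used the same Wt array. Cdkn3, a phosphatase of cyclin-dependent kinases, read 6.84 on Tg, 6.17 on Tg + luteolin, 6.58 on Wt and 6.29 on Wt + luteolin. Cdc20, an activator of the anaphase-promoting complex, read 7.07, 6.43, 6.83 and 6.48. Cdca3 and Kif20a, a mitotic kinesin, differed by -0.39 and -0.38. For these 4 genes both luteolin arrays lay below both arrays without luteolin. Rrm2, the ribonucleotide reductase subunit made in S phase, differed by -0.34 and Pcna, the DNA replication clamp, by -0.08. Of p53 targets, Ccng1 lay below Wt by -0.49, while Gadd45g lay above it by 0.57, Mdm2 by 0.01 and Cdkn1a by 0.19.

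Several genes of fasting metabolism stood between the Tg and Wt arrays. Lpin1, a phosphatidate phosphatase of fat synthesis and a coactivator of fasting genes, read 9.61 on Tg, 8.84 on Tg + luteolin, 8.05 on Wt and 7.90 on Wt + luteolin, a difference of 0.80. Pck1, which commits carbon to glucose production, read 12.50, 12.01, 11.25 and 11.60, a difference of 0.76. Ppp1r3c, which brings a phosphatase to glycogen, read 8.61, 9.79, 10.33 and 10.36, a difference of -0.54 after -1.72 on Tg. For these 3 genes the Tg + luteolin level was on the Tg side of Wt but closer to Wt than Tg was. All 3 were among the 10 largest differences of Tg from Wt in their direction, and both differences use the same Wt array. Their being closer to Wt is therefore not given as a result about fasting genes. G6pc1, the enzyme that releases free glucose, was low on Wt alone, at 10.34 against 11.05 to 11.31. Over the whole list of fasting, gluconeogenic and glycogen genes 10 of 23 were higher and 12 lower, with a median of 0.00, and the 3 past 1.5-fold were Lpin1, Pck1 and G6pc1. The median of the list on Tg was -0.02.

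Genes of fat oxidation differed in both directions. Cpt1a, which admits long-chain fatty acids to mitochondria, read 10.62 on Tg, 10.82 on Tg + luteolin, 11.48 on Wt and 11.62 on Wt + luteolin. Both transgenic arrays were below both wild-type arrays, and the difference was -0.66. Angptl4, an inhibitor of lipoprotein lipase and a PPAR-alpha target, was high on the Tg + luteolin array alone, at 10.45 against 9.73, 9.58 and 9.81 on Tg, Wt and Wt + luteolin. Pdk4, a kinase that spares glucose, differed by 0.71 and was higher on both luteolin arrays (8.55 and 8.40) than on Tg (7.91) and Wt (7.83). Fgf21, a fasting hormone of the liver, read 10.29, 11.49, 10.96 and 10.30 on Tg, Tg + luteolin, Wt and Wt + luteolin, and was highest on Tg + luteolin. Of the 35 genes of fat oxidation compared, 21 were higher and 14 lower, with a median of 0.05 that was below 0 under 3 of 9 alternative settings. On the authors' scaling it was -0.20 beside -0.24 for all genes. On Tg 28 of the 35 were lower than on Wt (52.7% of all genes), with a median of -0.14.

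Other lipid genes lay near Wt, with the exception of some members. Plin2, a coat protein of lipid droplets, read 11.45 on Tg, 11.89 on Tg + luteolin, 12.30 on Wt and 12.06 on Wt + luteolin, a difference of -0.41. The list of triglyceride and lipid droplet genes had a median of -0.04 over 20 genes, with the opposite sign under 1 of 9 alternatives. In lipogenesis 5 of 14 were higher and 9 lower, with a median of -0.02, against -0.23 on Tg, where 13 of 14 were lower (52.7% of all genes). In cholesterol synthesis and uptake 14 of 19 were lower and 5 higher, with a median of -0.06 on Tg + luteolin and -0.26 on Tg. Hmgcs1 and Sqle, enzymes of that pathway, both differed by -0.44. The signs of the lipogenesis and cholesterol medians held under all 9 alternatives. On the authors' scaling these medians were -0.27 and -0.35, where that of all genes was -0.24.

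Because the diet lacks methionine and choline, the genes that handle them were read as a list. Of 26 compared, 15 were lower and 11 higher, with a median of -0.04, and none reached 1.5-fold. Chka, which phosphorylates choline for membrane lipid synthesis, read 9.07 on Tg, 9.37 on Tg + luteolin, 9.84 on Wt and 9.53 on Wt + luteolin. Cth, which makes cysteine from methionine-derived cystathionine, read 10.13, 10.79, 10.37 and 10.80, and was higher on the luteolin arrays. Mat1a, the hepatocyte methionine adenosyltransferase, differed by 0.13 and Gnmt by -0.02.

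Most P450 genes were higher on Tg + luteolin than on Wt. These enzymes oxidise drugs, steroids and carcinogens, including diethylnitrosamine. Of 21 compared, 17 were higher and 4 lower, beside 51.3% and 48.6% of all genes. Their median was 0.12, which became -0.11 on the authors' scaling, where the median of all genes was -0.24. Cyp2e1, the main oxidase of diethylnitrosamine, read 13.75 on Tg, 14.03 on Tg + luteolin, 13.40 on Wt and 13.82 on Wt + luteolin, a difference of 0.63. Cyp2c7, which is higher in female rats, read 10.11, 11.34, 10.54 and 11.58, a difference of 0.80, and was higher on both luteolin arrays. These 2 were the P450 genes past 1.5-fold. The list of conjugating enzymes had a median of 0.03 over 15 genes, negative under 4 of 9 alternatives. Probes of the P450 subfamilies may also read close relatives.

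Sex-dependent liver genes were read because growth hormone patterns set many P450 and urinary protein genes in the rat. Of 13 male-predominant genes 11 were higher and 2 lower on Tg + luteolin, beside 51.3% and 48.6% of all genes. Their median was 0.20, or -0.05 on the authors' scaling, where the median of all genes was -0.24. The 3 past 1.5-fold were Mup5, Mup4l1 and Pbsn. Cyp2c11, the male-specific P450 of the rat, differed by 0.16 and was high on Wt + luteolin alone, at 10.13 against 8.18 to 8.52. Of 8 female-predominant genes 5 were higher and 3 lower, with a median of 0.20 whose sign held under all alternatives. Srd5a1, a steroid reductase at 0.30, was on both lists and counted in each. The male list also shared Cyp2c11, Cyp2a2 and Cyp3a18 with the P450 list, and Igf1 with the list of growth hormone signalling. The female list shared Cyp2c7, Cyp2a1 and Cyp3a9 with the P450 list. The counts and medians of these lists are therefore not separate readings. Cyp17a1, a steroid hydroxylase on the female list, was lower on Tg + luteolin than on Wt, at 9.44, 8.83, 9.64 and 8.84 on Tg, Tg + luteolin, Wt and Wt + luteolin. Of 17 genes of growth hormone signalling, 13 were higher and 4 lower, beside 51.3% and 48.6% of all genes. Their median of 0.17 ran from 0.00 to 0.26 under the 9 alternatives. Bcl6, a repressor that opposes STAT5 in liver, had the largest difference of these, -0.78, from 7.45 on Wt to 6.67 on Tg + luteolin, with 8.18 on Wt + luteolin. Ghr, the growth hormone receptor, and Cish, a feedback inhibitor, lay above Wt by 0.39 and 0.38.

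Globin transcripts were higher on Tg + luteolin than on Wt. Liver tissue holds blood, and immature red cells carry globin RNA. Hbb read 8.39 on Tg, 9.46 on Tg + luteolin, 8.59 on Wt and 9.44 on Wt + luteolin, a difference of 0.87. Hba-a1 read 8.62, 9.61, 8.76 and 9.53, a difference of 0.85, and Hbb-bs 8.77, 9.86, 9.03 and 9.62, a difference of 0.83. On each of these 3 probes both luteolin arrays were higher than both arrays without luteolin. Hbb-b1 and Hba-a2 differed by 0.68 and 0.56. Of 9 erythroid genes compared, 8 were higher and 1 lower, with a median of 0.56, which ran from 0.47 to 0.83 under the 9 alternatives. The genes that are not globins gave smaller values, but they were dim. Alas2, the heme synthesis enzyme of red cell precursors, differed by 0.04, with raw intensities of 42.2 on Tg + luteolin and 40.3 on Wt. The membrane protein Slc4a1 differed by 0.05 (52.4 and 49.7). The background constants were 38.1 and 37.5, and the offset shrinks differences at such levels. Hba-a3, a dim globin (46.2 and 41.9), differed by 0.10. Globins and the other genes are therefore not compared at like brightness. The summed intensity of the list was 1773 on Tg, 3054 on Tg + luteolin, 1749 on Wt and 3518 on Wt + luteolin. Probes of the globin family share sequence and are not independent readings.

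Genes of inflammation lay near Wt. In the list of cytokines and chemokines 17 of 27 were lower and 10 higher, with a median of -0.05, and none reached 1.5-fold. Of 20 acute phase genes 13 were lower and 5 higher, and A2m was the one past 1.5-fold. Their median of -0.11 was negative under all 9 alternatives, with -0.39 on the authors' scaling beside -0.24 for all genes. Fga and Fgb, chains of fibrinogen, differed by -0.37 and -0.43, while Crp and Orm1 differed by 0.37 and 0.35. Interferon-stimulated genes were split evenly, 14 and 14, with a median of 0.01 whose sign changed under 5 of 9 alternatives. In antigen presentation Cd74, the invariant chain, and RT1-DMb lay above Wt by 0.37 and 0.38, whereas RT1-Da lay below it by -0.35 and Psmb10, an immunoproteasome subunit, by -0.42. T and NK cell, B cell, neutrophil and mast cell markers had medians of 0.02, 0.05, 0.01 and 0.02, each with the opposite sign under 2 or 3 of the alternatives. No marker of these 4 lists reached 1.5-fold.

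**Figure D5:**
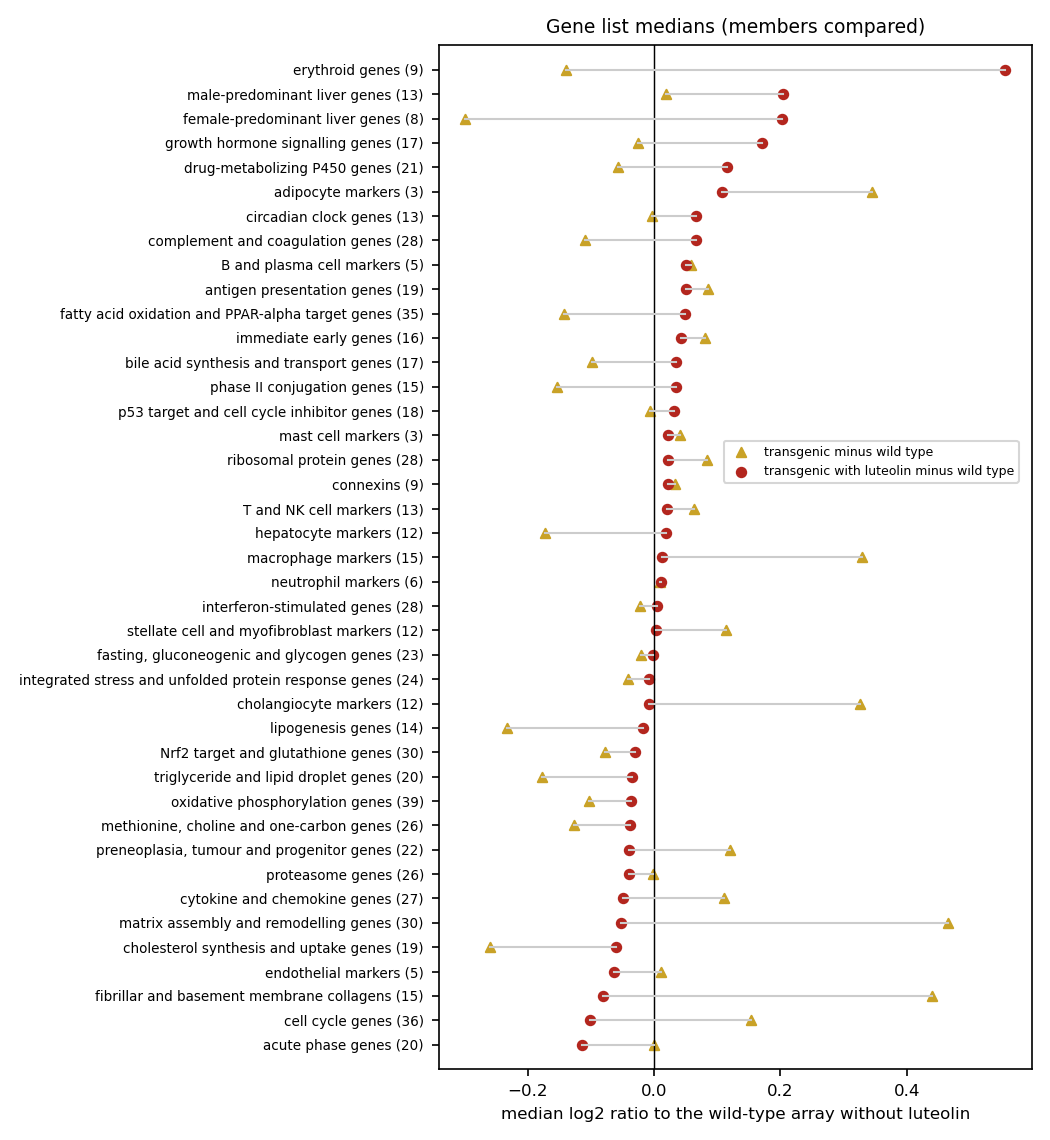
Median log2 ratio to the Wt array (horizontal) of each gene list with at least 3 members compared (vertical, number of members in brackets), with 1 point for the Tg array and 1 for the Tg + luteolin array. The erythroid median is furthest to the right on Tg + luteolin, at 0.56. Medians near 0 change sign between settings. P450 and male-predominant medians fall below 0 on the authors' scaling, where the median of all genes is -0.24.

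The genes that differed most between Tg and Wt were followed onto the Tg + luteolin array. Of the 10 largest positive differences of Tg, Mup4l1 went from 2.14 to 0.98, Lpin1 from 1.56 to 0.80, Mup5 from 1.48 to 1.07, Sfxn2 from 1.38 to 1.23 and Pck1 from 1.25 to 0.76. The other 5, Mgp, Col3a1, Ccn2, Col1a2 and Serpine2, were at or below Wt on Tg + luteolin, as given above. Among the 10 largest negative differences, Nup98 went from -1.55 to 0.00, Nr2f6 from -1.51 to -0.11 and Galk1 from -1.11 to -0.07. These 3 were low on the Tg array alone, as were Aspg and Cyp8b1, which both stood at -0.36 on Tg + luteolin. The probes of Nup98 and Nr2f6 are neighbours in file order (rows 3153 and 3154), so they may not be separate readings. Whether a local fault of the Tg array lowered both was not tested. Crat, a mitochondrial carnitine acetyltransferase, went from -0.88 to -0.33, and Hjv, a regulator of iron balance, from -0.84 to -0.42. These genes were picked for their Tg values, and both differences use the same Wt array, so no count over them is given as a result.

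On the scale used here, no gene above background on only 1 of the compared arrays had a bound of 2-fold or more. There were 220 on Tg + luteolin only and 919 on Wt only. The largest bound was at least 1.20-fold for Nat8l on Tg + luteolin and at least 1.19-fold for Tsbp1 on Wt, taking as floor the lowest signal that was kept on the dimmer array. Nat8l had a raw intensity of 48.3 on Tg + luteolin, where the background constant was 38.1. The offset shrinks the bounds of such dim genes, so they say little about the fold without it.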

How the data were processed

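The authors hybridised Cy5-labelled amplified RNA from liver to single-colour arrays, 1 array per group, per the labels' protocols. Each deposited file gives, per the file headers, a raw intensity, a background-subtracted intensity and a globally normalized intensity per probe. Set against the raw column, the authors' background subtraction removed a single constant from each array (37.5 to 39.8) and left a blank near or below it, and their globally normalized intensity had a median of 25 on each array. A probe counted as above background where the background-subtracted value was given. The sources used here do not give the scanner or its software. Flags removed 2 spots on the Tg + luteolin array.

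Raw intensities were corrected with limma's normexp method (limma 3.58.1, R 4.3.3, offset 50), taken to log2 and quantile normalized over the 4 arrays. The median raw intensity was 48.0 to 54.4, near the background constant, so the offset shrinks differences of dim genes. The steps were tested on simulated data. For 90 genes with several probes the brightest was used. Names came from the RefSeq table by curated accession (10614 probes), Entrez identifier (3125), other accession (136), current symbol (1504) or synonym (207); 2510 kept the file's name, no name was available for 1990, and names conflicted for 88, which stayed unnamed.

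Differences are log2 ratios of 2 arrays and carry no test. Genes were named by rule: the connexins, the 15 largest differences in each direction with a current symbol, the 10 largest of Tg against Wt, the 6 largest of each of 43 lists, the largest bounds, and list members discussed for their role. Some genes that the rule names are not reported here. The members, lists and thresholds were chosen with earlier results of these data known. Alternatives were median centring, quantile normalization of the 2 arrays, an offset of 16, the authors' intensities, the series table's intensities (the same values rounded), a brightness filter of 2 times the constant, the mean of a gene's probes, and removal of a running median over 101 probes in file order. A ninth, the authors' values centred on their median, was added after seeing the data, as was the standard deviation as a summary.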

Additional observations from a re-analysis of the deposited data

How the results depend on the processing

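No paired analysis was possible because each group had 1 array, and for the same reason no replicate could be left out. The 7 genes higher and 3 lower at 2-fold became 3 and 4 after centring on array medians, 16 and 5 with an offset of 16, 45 and 259 on the authors' values, 168 and 651 on the series table's values, and 91 and 111 on the authors' values centred on their median. The authors' values carry no offset, so that dim genes reach 2-fold more easily. The median of the skeletal muscle markers, which rests on 1 gene, was -0.13, and -2.20, -2.32 and -1.97 on those 3 sets of values. It had no value under the brightness filter. The other 42 list medians moved by less than 1.5-fold, and no gene past 2-fold turned sign. That bar, 0.585 in log2, is larger than each of these medians, so one could vanish or change sign and still pass. The cell cycle median, for one, reached -0.64 from -0.10. Of the 10 genes past 2-fold, 6 remained so after median centring, 9 with the 2 arrays alone, 10 with an offset of 16 and 8 on the authors' values. The brightness filter kept all 8 it measured. It could not measure Csnk2a2 and Rufy1, the largest negative and the largest positive difference, each too dim on 1 of the compared arrays. Medians up to 0.066 in size changed sign after median centring (8 of 43), and on the authors' values, whose median over all genes was -0.24, 22 of 43. Faint signal limits precision: most probes above background lay under 50 units.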

Other observations

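Genes of basic cell machinery gave medians near 0. Of 39 genes of oxidative phosphorylation 23 were lower and 16 higher on Tg + luteolin than on Wt, with a median of -0.04, and none reached 1.5-fold. The proteasome list, whose members degrade tagged proteins, had 18 of 26 lower and 8 higher, with a median of -0.04. Both signs held under all 9 alternative settings. On the authors' scaling these medians were -0.28 and -0.29, where that of all genes was -0.24. Ribosomal protein genes had a median of 0.02 over 28 genes, with the opposite sign under 3 of 9 alternatives.

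Bile acid and clock genes held single members with larger differences. Cyp7a1, the rate-limiting enzyme of bile acid synthesis, read 9.71 on Tg, 8.76 on Tg + luteolin, 9.19 on Wt and 9.75 on Wt + luteolin, and was lowest on Tg + luteolin. Amacr, a racemase of bile acid side chains, and Slco1b2, an uptake transporter of hepatocytes, differed from Wt by 0.57 and 0.47. Among clock genes Bhlhe40, a repressor of the clock, read 7.02, 7.69, 7.04 and 7.07, a difference of 0.66. Core members Bmal1, Per1 and Per2 differed by 0.08, 0.02 and 0.07. The sources used here do not give the time of day at which livers were taken.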
